A study of Ambystoma mexicanum with 17 samples.

Results

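The 100 steadiest genes of cultured axolotl throat endoderm are described here: of all genes with a count in every library, those whose level varied least. The axolotl (Ambystoma mexicanum) is a salamander, and its oropharyngeal endoderm is the inner layer of the embryo that lines the future mouth and throat. RNA was sequenced from explants of this tissue, cut out at stage 15, cultured in L-15 medium with antibiotics and collected when whole sibling embryos had reached stage 37/38 (6 libraries), stage 39 (6 libraries) or stage 41 (5 libraries). All explants had the same origin, medium and antibiotics, so stage is the only difference between groups that the labels name. The labels give no number of embryos or explants per library, and the spread between libraries may be partly technical.

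The members were chosen from the measured values. Counts were divided by the library total to give CPM (counts scaled to a library total of 1000000), and L stands for log2(CPM + 10). Of 19649 genes in the table, 458 had a count in all 17 libraries, and 415 of these had a mean of at least 100 CPM. The 100 with the smallest standard deviation (SD) of L over the 17 libraries are the steadiest genes. They are 24.1% of the genes that passed these filters and 0.509% of the table. All 100 also passed the filter on low counts used for the stage comparisons. Since L in all libraries chose them, their levels, spreads and stage differences are given below as a description.

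A gene here is a Trinity gene, a cluster of transcripts assembled from the reads without a genome. Gene names are not given for these identifiers. A lookup of the 19649 identifiers in the RefSeq table of 135668 axolotl genes gave 0 matches, but Trinity labels come from the assembly and could not match. No sequence was compared, so this does not show whether the genes are annotated. No member can therefore be given a role, and markers of endoderm or of other tissues could not be looked up. As background, genes that every cell needs, such as those for ribosomes, energy metabolism and the cytoskeleton, are often the abundant and even part of a transcriptome. Such genes are commonly used as a reference against which other genes are measured. An RNA level given as a share of a library also moves when a few very abundant genes take more or less of that library. In bulk samples like these, fewer cells of a type and less RNA per cell cannot be told apart.

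The libraries were shallow and uneven, with total counts from 67834 to 748720 and 3169 to 9900 genes detected. The 100 genes together held 32.7% to 57.9% of the counts of a library. At stages 37/38, 39 and 41 their mean share was 43.8% ± 6.12, 44.7% ± 8.92 and 46.2% ± 2.32 (SD, n = 6, 6 and 5). The ranges of the stages overlapped, at 35.8% to 51.1%, 32.7% to 57.9% and 43.8% to 48.9%. The 2 members with the highest CPM made up most of the mean share at each stage, though not of the share in every library. Without them the other 98 held 18.8% ± 1.78, 15.0% ± 3.65 and 18.2% ± 2.78 (SD) at the stages in the same order.

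Steady is a relative term in these data. The SD of L of the members ran from 0.363 to 0.793 with a median of 0.690, which is a factor of 1.61 for 1 SD. Among the other 315 genes that passed the level filter it ran from 0.795 to 2.80, with a median of 1.08. The highest library of a member stood 2.38 to 15.9 times above its lowest, with a median ratio of 5.77, against a median of 22.5 for the other 315. Of all values of members, 87.5% lay within 2-fold of the gene's own mean level, against 64.6% for the others. Yet only 9 of the 100 members stayed within 2-fold in every library, and 0 of the other 315 did.

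Counting error was a small part of this spread. At the depth of these libraries, Poisson counting alone would give a member an SD of L of 0.00888 to 0.321, with a median of 0.116. It amounts to 0.0244% to 18.1% of a member's variance, with a median of 3.63%, and 3.12% for the other 315 genes. The coefficient of variation of CPM left after the Poisson part was taken off was 24.3% to 76.0% in members, with a median of 42.9%, and its median in the others was 67.0%. The Poisson part covers counting error only, since reads that lack molecular identifiers may be copies of 1 molecule. The lowest library of a member held few reads in some cases: 16 members had a library with under 10 counts, and the smallest count of any member was 2.

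The members were drawn mostly from the genes with many counts. With the 415 genes split by mean CPM into 3 classes of near equal size, 65 of the 139 in the top class were members, 24 of the 138 in the middle class and 11 of the 138 in the bottom class. The median SD of L was 1.09 in the bottom, 1.005 in the middle and 0.808 in the top class. Mean CPM of members ran from 104 to 162609 with a median of 930, and that of the other 315 had a median of 282. The members include 8 of the 10 genes of the table with the highest mean CPM. Transcript lengths are not in the files used here, so CPM values of different genes are shares of reads and not amounts of RNA molecules.

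**Figure D1:**
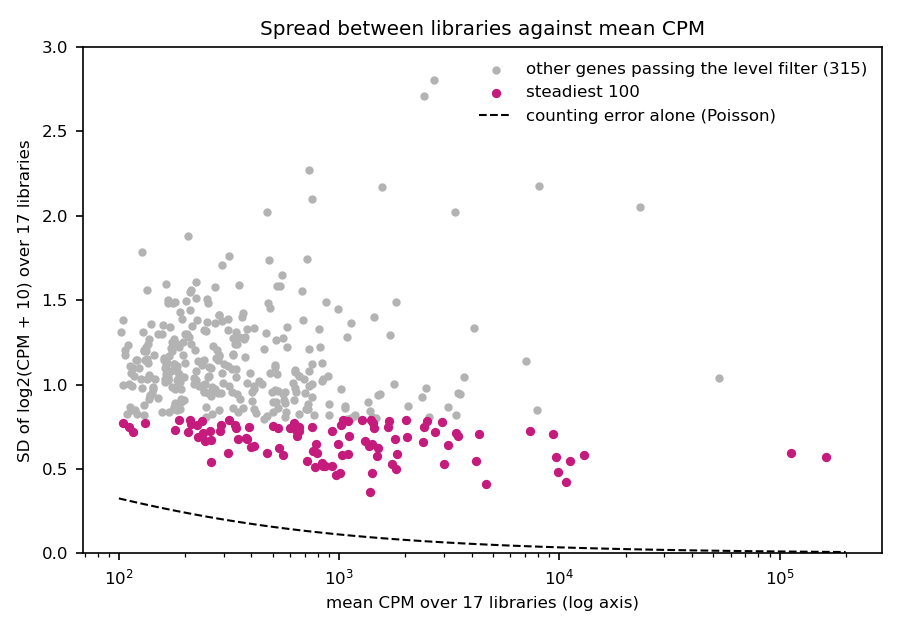
Standard deviation of log2(CPM + 10) over 17 libraries (vertical axis) against mean CPM (horizontal log axis) for the 100 steadiest genes and the other 315 genes that passed the level filter; the dashed line is the spread that Poisson counting alone gives. Every gene lies above the dashed line, and the members, at 0.363 to 0.793, are most frequent among genes with high CPM.

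The steadiest gene of all was TRINITY_DN31357_c0_g1, with an SD of L of 0.363. Its CPM had a lowest, median and highest value of 739, 1387 and 1794 at stage 37/38, and of 1136, 1263 and 1763 at stage 39. At stage 41 its 5 libraries had 1186, 1251, 1468, 2226 and 1195 CPM in the order of the replicates. All 3 stages overlap, and the lowest and highest values of the gene, in stage 37/38 replicate 4 and stage 41 replicate 4, came from the libraries with the fewest counts, 71698 and 67834. Counting error gives 6.98% of its variance.

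TRINITY_DN4641_c0_g1 had the second smallest SD of L, 0.410, and the narrowest ratio of highest to lowest library, 2.38. Its lowest, median and highest CPM were 3082, 4230 and 6877 at stage 37/38 and 2894, 4480 and 6552 at stage 39, and its stage 41 libraries had 4851, 6853, 4457, 4201 and 2962 CPM. The stages share almost the same range, and their means of 4568 ± 1459, 4730 ± 1378 and 4665 ± 1412 CPM (SD, n = 6, 6 and 5) differ by less than 1 SD.

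TRINITY_DN31313_c0_g1, with an SD of L of 0.422, was both among the steadiest and among those with the highest CPM. Its lowest, median and highest CPM were 8606, 10955.2 and 11848 at stage 37/38 and 5772, 9349 and 10624 at stage 39. Its stage 41 libraries had 16714, 11874, 13987, 6530 and 17253 CPM. Stage 37/38 was tight here and stage 41 was wide: 4 of its 5 libraries lay above every library of the other stages, replicate 2 only just, and replicate 4 lay near the bottom. These 3 genes also had the smallest coefficients of variation beyond counting, 24.3%, 28.3% and 29.0%.

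The next in order were TRINITY_DN24864_c0_g1 and TRINITY_DN9187_c0_g1, with SDs of L of 0.462 and 0.476. At stages 37/38, 39 and 41 the former averaged 1023 ± 248, 784 ± 252 and 1108 ± 515 CPM (SD, n = 6, 6 and 5). The latter averaged 1582 ± 580.5, 1421 ± 267 and 1187 ± 420.2 CPM at the same stages. In both genes the stages overlap.

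**Figure D2:**
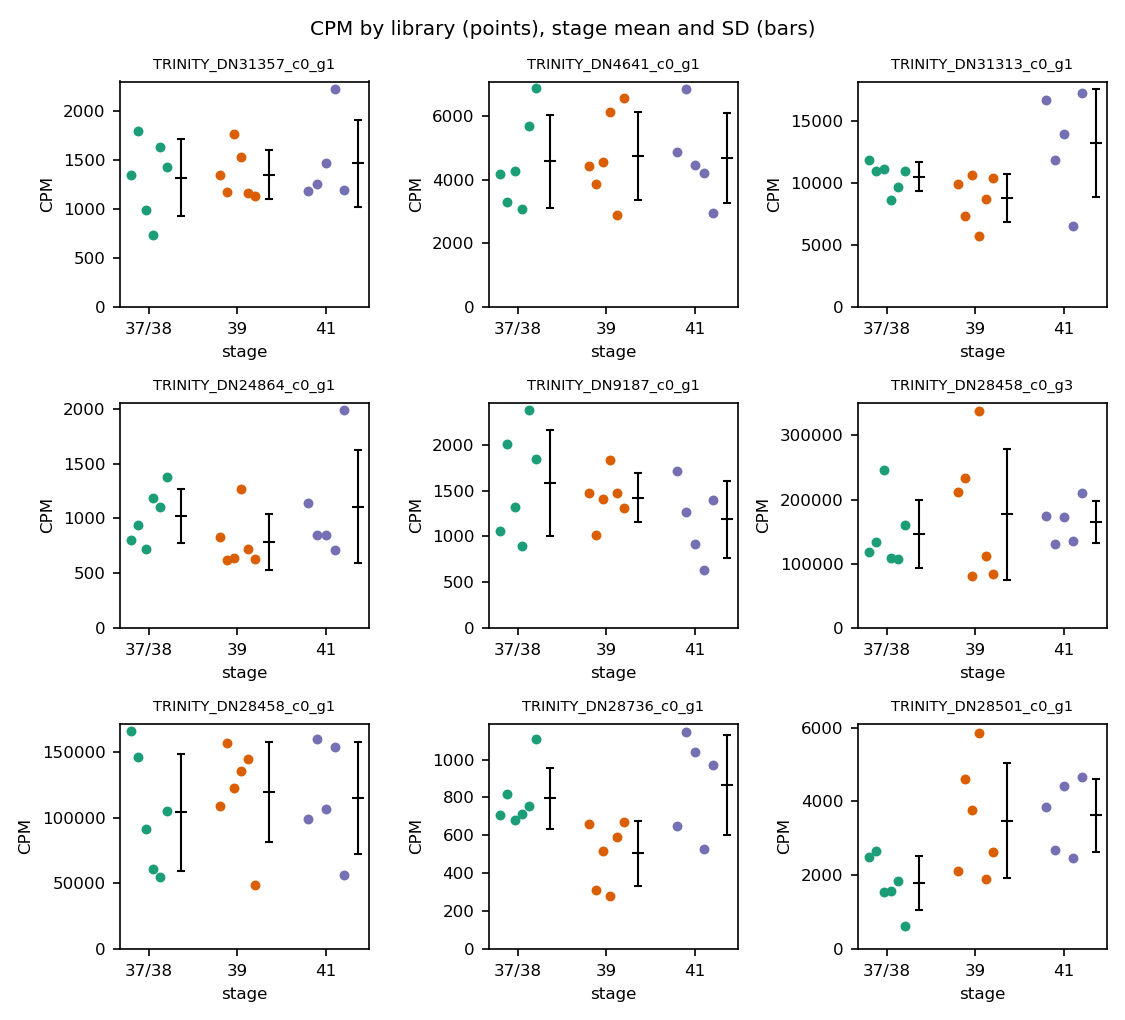
CPM of 9 of the 100 genes in each library (points, by stage), with the stage mean and SD (bars) beside them. The 5 steadiest genes, from TRINITY_DN31357_c0_g1 to TRINITY_DN9187_c0_g1, cover overlapping ranges at all stages, while TRINITY_DN28736_c0_g1 lies lower in every stage 39 library than in every stage 37/38 library. That gap is narrow, and it is absent under the TMM scaling described below.

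The limit of the list is not a gap. The last 2 genes inside it, TRINITY_DN31533_c0_g1 and TRINITY_DN31342_c0_g1, had SDs of L of 0.791 and 0.793 and mean CPM of 187 and 1044. The next 2 outside it, TRINITY_DN31595_c0_g1 and TRINITY_DN26560_c0_g1, had 0.795 and 0.796 and mean CPM of 1081 and 457. The member with the lowest mean, TRINITY_DN29089_c0_g1, had 104 CPM on average and from 28.2 to 187 in single libraries, with a smallest count of 5, and 17.3% of its variance is of the size that counting gives.

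A single pair of members came from the same assembly component. TRINITY_DN28458_c0_g3 and TRINITY_DN28458_c0_g1 were also the 2 genes with the highest CPM of the table. TRINITY_DN28458_c0_g3 had a lowest, median and highest CPM of 107038, 126496 and 246531 at stage 37/38 and of 80609, 162448 and 338185 at stage 39. Its stage 41 libraries had 174274, 131490, 172249, 136251 and 210917 CPM. For TRINITY_DN28458_c0_g1 the lowest, median and highest were 55199, 98356 and 165928 at stage 37/38, 48950 to 156785 around 128889 at stage 39, and 56368 to 159958 around 106704 at stage 41. Their SDs of L were 0.569 and 0.593, and the SD of their summed CPM was 0.455. The component holds 3 genes, and the remaining one also passed the level filter but is no member. All counts of both members were whole numbers.

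In other respects that the rule did not use, the members had the following make-up. Of the 100, 8 had more than 1 transcript in the map (up to 6 transcripts), against 40 of the other 315 (12.7%) and 931 of all genes (4.74%). A component shared with another gene of the table was found for 17 members, 81 of the other 315 (25.7%) and 7300 of all genes (37.2%). The 17 include 12 with at least 1 fractional expected count, which arises where reads are divided between sequences, while 7 of the 83 members alone in their component had one. Among the other 315 genes, 69 of the 81 that share a component had one, and 3 of the 234 alone in theirs. In all, 81 members and 243 of the others (77.1%) had whole counts in every library.

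The members did not keep their level equally well in all libraries. In stage 39 replicate 4, 80 of the 100 members lay below their own mean, 30 had their lowest value of all 17 libraries, and the median member stood 0.80 below its mean (L scale). In stage 39 replicate 2, 75 lay below their mean and 14 had their lowest value, with a median of -0.42. In the other 15 libraries this median ran from -0.16 to 0.40, and 0 to 8 members had their lowest value there. The other 315 genes shifted alike, with medians of -1.26 in replicate 4 and -0.46 in replicate 2. In the same 2 libraries TRINITY_DN28458_c0_g3 and TRINITY_DN28458_c0_g1 together took 47.4% and 39.1% of the counts, against 13.4% to 33.8% in the other 15. Their part in the low values was not tested. The direction of the shift turned with TMM scaling, which is described below. Scaled so, 37 members lay below their mean in replicate 4, where the median of 0.26 was the highest of the 17 libraries. In replicate 2 it was 41 members, with a median of 0.22. The members were closest to their means in stage 37/38 replicate 1 (median absolute deviation of L 0.23), which with 365543 counts was among the deeper libraries. In the deepest, stage 41 replicate 2 with 748720 counts, 0 members lay over 2-fold from their mean. In stage 39 replicate 4, with 205133 counts, 42 did. Greater depth did not always go with fewer such members. There were 22 in stage 39 replicate 2 (524489 counts) and 9 in stage 39 replicate 1 (123809 counts).

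**Figure D3:**
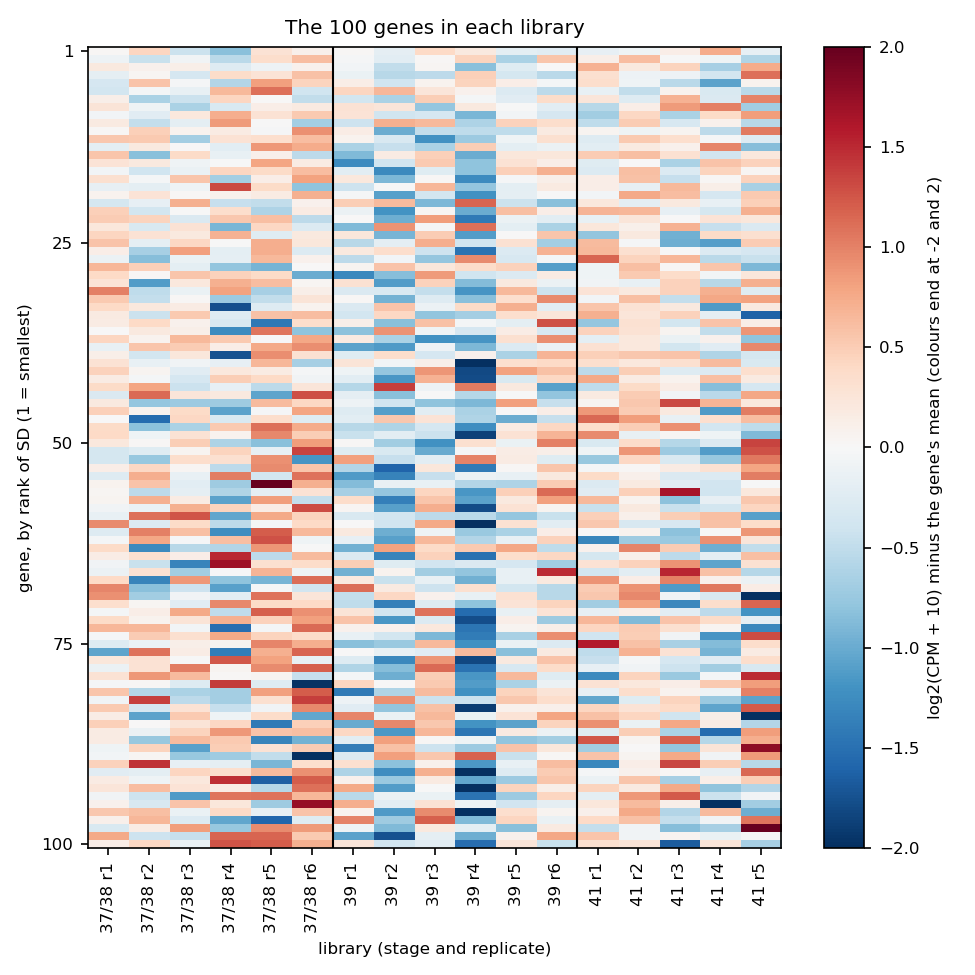
Deviation of each of the 100 genes (rows, in order of SD) from its own mean of log2(CPM + 10), in each library (columns, by stage and replicate). Stage 39 replicate 4 is the bluest column, with 80 of 100 genes below their mean, followed by stage 39 replicate 2 with 75.

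Scaling changed which genes count as steady. TMM scaling (trimmed mean of M-values) sets libraries to a common level by the bulk of the genes, so that a few very abundant genes weigh less. With it the median SD of L of the members went from 0.690 to 0.628, and 61 of the 100 became steadier. The 100 steadiest genes under TMM shared 72 with the members. Of the 66 members below their mean in both stage 39 replicates 2 and 4, 58 were in that list, and their median SD of L went from 0.707 to 0.579. Of the 11 members above their mean in both, 2 were, and their median SD went from 0.626 to 0.873. These 2 libraries had the lowest TMM factors, 0.632 and 0.470, so TMM raised all values there. The groups were split by values in the same libraries. Their contrast is therefore only a description, and the part of the scaling in it was not tested. The pair TRINITY_DN28458_c0_g3 and TRINITY_DN28458_c0_g1 dropped to ranks 191 and 165, with SDs of 0.916 and 0.870. TRINITY_DN31357_c0_g1 went from rank 1 to 31 and TRINITY_DN4641_c0_g1 from 2 to 42, while TRINITY_DN31313_c0_g1 stayed near the top at rank 8 with an SD of 0.423. TRINITY_DN28736_c0_g1 rose from rank 19 to 6. Without stage 39 replicates 2 and 4, also 72 of the 100 steadiest genes were members.

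**Figure D4:**
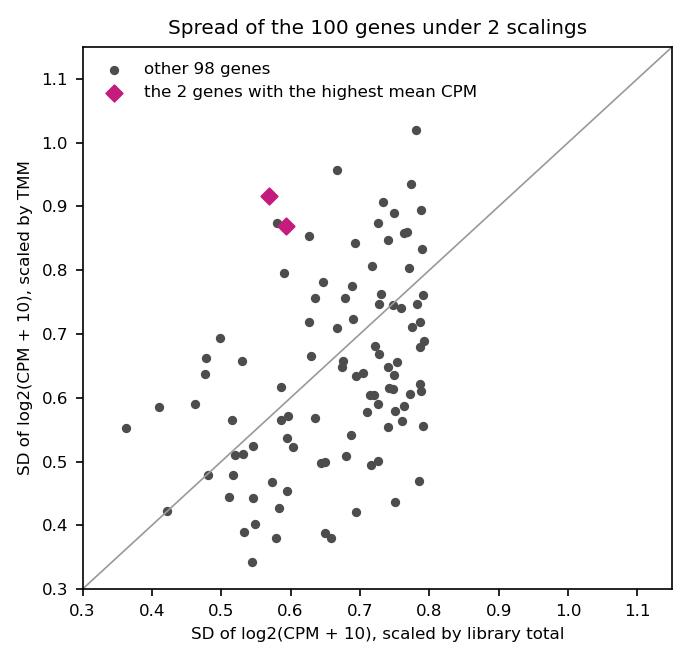
SD of log2(CPM + 10) of each of the 100 genes over 17 libraries when CPM is scaled by library total (horizontal axis) and by TMM (vertical axis), with the line of equal values. Below the line lie the 61 genes that are steadier under TMM, and the 2 genes with the highest mean CPM lie above it, at 0.916 and 0.870.

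Some members stayed in the list under every way of ranking tried. The list was made again 17 times with 1 library left out and 14 times with other settings. Of the members, 66 were in all 17 of the former and 18 in every list of both kinds. Every list ranks genes in the libraries that chose the members, or in part of them. Recurrence is therefore not independent of that choice, and how many genes would recur anyway was not computed. The 18 include the 5 steadiest genes, TRINITY_DN28158_c1_g1 and TRINITY_DN28736_c0_g1. TRINITY_DN28158_c1_g1 averaged 12485 ± 4080, 9061 ± 3237 and 11987 ± 3224 CPM at stages 37/38, 39 and 41 (SD, n = 6, 6 and 5). TRINITY_DN27688_c0_g1, another gene of high CPM, averaged 14836 ± 3135, 12249 ± 5282 and 11642 ± 4614 at these stages.

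The rule was also applied to 1 run of title letters at a time and the picked genes described in the other run. The libraries of both runs are those that chose the members, so nothing here is independent of the members' choice. Letters A to J name 9 libraries and K to R 8, each with all 3 stages but not in equal numbers. What the letters stand for is not stated. The 100 genes picked in A to J had a median SD of L of 0.561 there and of 0.889 in K to R, where the other 456 genes that passed in A to J had 1.30. Of the 100, 77 lay below that median. The 100 picked in K to R had 0.568 there and 0.798 in A to J, where the other 405 had 1.07 and 80 of the 100 lay below it. The picked genes had higher CPM than the rest, with medians of 757 against 249 and 708 against 204 in the libraries not used for the choice. Within the middle range of the picked genes' mean CPM the gap was smaller, 0.952 for 50 picked against 1.11 for 157 others in K to R, and 0.776 for 50 against 0.908 for 122 in A to J. A count in every library of the other run was found for 87 of the 100 picked in A to J and 316 of the other 456, and for 95 of the 100 picked in K to R and 334 of the other 405. The median SDs in the other run include genes that lack a count there, which were more frequent among the others. Their part in the gap was not tested. The picks, 100 of 556 genes that passed in A to J and 100 of 505 in K to R, shared 31 genes. How many unrelated picks of genes with high CPM would share was not computed.

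The stages were compared to ask which genes differ as the explants develop in culture. The rule kept genes with a large stage difference out of the list, so nothing is read from these counts about the members. Between stage 39 and stage 37/38, edgeR's quasi-likelihood test called 0 members at an adjusted p under 0.05, with a background of 0.0% of 1985 genes. Without adjustment 2 members lay below 0.05, against 4.38% of all tested genes. DESeq2 gave an adjusted p to 98 members and 752 genes in all and called 0 members (background 1.99%), with 2 below 0.05 before adjustment (background 7.16%), and limma-voom 0 (background 0.0%) with 2 (background 4.63%). Between stage 41 and stage 39, edgeR called 0 members (background 0.0%) with 0 below 0.05 before adjustment (background 2.37%). There DESeq2 called 0 members (background 0.0%) with 0 before adjustment (background 4.24%), and limma-voom 0 (background 0.0%) with 1 (background 4.03%). Between stage 41 and stage 37/38, edgeR called 0 (background 0.0%) with 1 before adjustment (background 2.67%). There DESeq2 called 0 (background 0.101%) with 1 (background 4.34%), and limma-voom 0 (background 0.0%) with 4 (background 3.83%). For any difference between the stages edgeR called 0 members (background 0.0%) with 1 before adjustment (background 3.48%), DESeq2 0 (background 0.0%) with 1 (background 5.35%), and limma-voom 0 (background 0.0%) with 2 (background 3.83%).

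Both in members and over all tested genes, the median log2 fold change without sign lay below the median error. For members it was 0.29 for stage 39 against 37/38, 0.25 for stage 41 against 39 and 0.21 for stage 41 against 37/38, with median standard errors (SE) of 0.46, 0.48 and 0.48. Over all 1985 tested genes the medians were 0.64, 0.59 and 0.60, with median SEs of 1.10, 1.16 and 1.16. Within 2-fold lay 99, 98 and 99 of the 100 members in these comparisons, and 70.1%, 69.9% and 71.2% of all tested genes. The comparisons share libraries, and the rule made these values small.

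**Figure D5:**
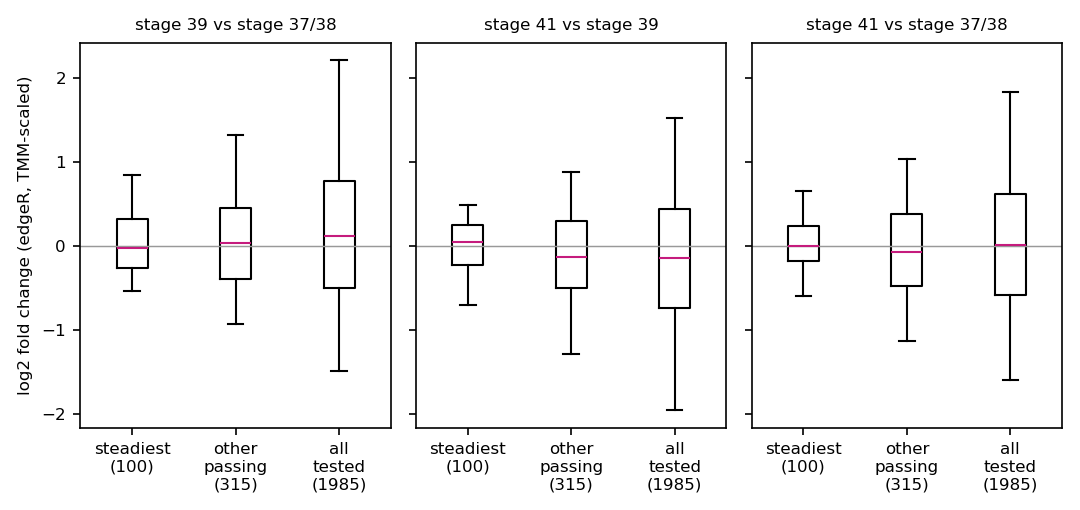
Log2 fold changes between stages in edgeR with TMM scaling, for the 100 steadiest genes, the other 315 genes that passed the level filter and all 1985 tested genes. Boxes give the quartiles with the median line and whiskers the 5th and 95th percentiles; the boxes of the 100 genes are the narrowest in each comparison, as their choice requires.

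Which stage stood highest depended on the scaling. With CPM as the rule uses it, the mean of L was highest at stage 37/38 in 53 members, at stage 39 in 9 and at stage 41 in 38. With TMM these counts were 38, 28 and 34. In edgeR, 47 of 100 members had a higher fitted level at stage 39 than at 37/38 with TMM, and 22 with library totals alone. For stage 41 against stage 39, 54 were higher with TMM and 76 with library totals alone. The median log2 fold change of all 1985 tested genes moved as well, from 0.12 with TMM to -0.12 with library totals for stage 39 against 37/38 and from -0.15 to 0.04 for stage 41 against 39. That of the members moved from -0.03 to -0.34 and from 0.04 to 0.27. With TMM kept, the counts of higher members also varied with the libraries and the filter. Leaving out 1 library gave 35 to 49 for stage 39 against 37/38 and 47 to 66 for stage 41 against 39. Without stage 39 replicates 2 and 4 the counts were 31 and 70. With a filter of 5 CPM in 5 libraries they were 35 and 67.

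A single member had stages that did not overlap in CPM. TRINITY_DN28736_c0_g1 had 706, 816, 682, 711, 756 and 1110 CPM at stage 37/38 and 662, 311, 519, 283, 589 and 671 at stage 39, in the order of the replicates. Every stage 39 library lay below every stage 37/38 library, though the highest of the former (671) lay close to the lowest of the latter (682), and it was the only such gene of 1985 (0.0504%). Its stage 41 libraries had 649, 1147, 1038, 531 and 972 CPM and overlap both. In edgeR its log2 fold change for stage 39 against 37/38 was -0.37 (SE 0.39, adjusted p = 0.994). Scaled by TMM the stages overlapped, at 558 to 950 and 436 to 800 CPM. For the other directions and comparisons, in which 0 members had stages that did not overlap, the share of tested genes without overlap was 0.0% to 0.202%.

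The members with the highest and lowest fold change between stages 41 and 37/38 lay near the end of the list. TRINITY_DN28501_c0_g1, at rank 89, had 2498, 2659, 1535, 1576, 1845 and 620.2 CPM at stage 37/38, 2116, 4601, 3771, 5850, 1903 and 2621 at stage 39, and 3860, 2694, 4405, 2476 and 4661 at stage 41. Stage 41 overlaps stage 37/38 only in replicate 4. Its log2 fold change was 1.04 (SE 0.50, edgeR adjusted p = 0.9997) for stage 41 against 37/38 and 1.52 (SE 0.49, edgeR adjusted p = 0.613) for stage 39 against 37/38, the largest of any member. These fold changes are scaled by TMM, unlike the CPM values above. The highest stage 39 libraries, replicates 2 and 4, had the lowest TMM factors of all libraries, 0.632 and 0.470, which raises their values further. Their part in the fold change was not tested. The SD of L of this gene under TMM, 1.02, was the widest of the 100. TRINITY_DN19621_c0_g1, at rank 82, averaged 371 ± 240, 297 ± 118 and 188 ± 97.98 CPM at stages 37/38, 39 and 41 (SD, n = 6, 6 and 5). Its stages overlap, and its log2 fold change for stage 41 against 37/38 was -0.91 (SE 0.61, edgeR adjusted p = 0.9997).

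In members, libraries of the same stage differed almost as much as libraries of all stages. Their median SD of L was 0.690 over all libraries and 0.660 within stages, with the variances of the stages averaged. At single stages, with fewer libraries each, it was 0.556 at stage 37/38, 0.644 at stage 39 and 0.568 at stage 41. For the other 315 genes it was 0.899, 1.17 and 1.01. The rule chose members by a small SD over all libraries, so these values are a description. Between the runs of letters, 68 of 100 members had a higher mean of L in K to R than in A to J, with a median difference of 0.18, and the other 315 genes had a median difference of 0.22. The runs do not hold the stages in equal numbers. Stage 39 replicates 1 to 4 and stage 41 replicates 1 and 2 belong to A to J, the others of these stages to K to R. Each run holds libraries of every stage, and the part of stage in this difference was not tested. Stage 39 replicates 2 and 4, with median member deviations of -0.42 and -0.80, both belong to A to J. Under TMM these deviations were 0.22 and 0.26. The part of these libraries in the difference between runs was not tested.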

How the data were processed

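Per the submitters' processing notes, reads were handled with Trimmomatic, Bowtie2 and RSEM, with no versions stated. The deposited table holds expected counts per Trinity gene for 17 libraries, and 8.79% of the values above 0 were not whole. The deposited map of gene and transcript identifiers has no measured unit (other). CPM was computed from the expected counts as deposited. For the stage tests they were rounded to whole numbers, filtered with filterByExpr (minimum count 10) by stage, scaled by TMM and fitted over all 17 libraries with 1 coefficient per stage in edgeR 4.0.16 (glmQLFit, glmQLFTest), with Benjamini-Hochberg adjustment over 1985 genes. SE was taken from the fold change and its F statistic. DESeq2 1.42.0 and limma 3.58.1 (voom) were alternatives, as were other scalings, filters, spread measures, letter runs, the replicate block and leaving out libraries. A check for duplicate libraries found no 2 libraries of a stage that agreed within counting error (chi-square per degree of freedom at least 22.9). Named are the 5 steadiest members, the 5 with the highest and the 1 with the lowest mean CPM, the 3 least variable beyond counting, the extremes of fold change, those at the list's limit, and members alone in meeting a count. The members and rules were chosen with earlier results of these data known.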

Additional observations from a re-analysis of the deposited data

Results flagged for a closer look

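Dixon's gap was used to look for a single library far from the rest of its stage, over 54 groups of values (the named genes and the summed share of the members, by stage). It marked 4, where about 1 in 20 is expected by chance. For TRINITY_DN31357_c0_g1 the library was stage 41 replicate 4, at 2226 CPM beside 1186 to 1468 in its stage, and this is the library with the fewest counts. For TRINITY_DN24864_c0_g1 it was stage 39 replicate 4, at 1272 CPM beside 622 to 832. For TRINITY_DN31533_c0_g1 it was stage 41 replicate 1, at 244 CPM beside 147 to 171. For TRINITY_DN28736_c0_g1 it was stage 37/38 replicate 6, at 1110 CPM beside 682 to 816.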

How the results depend on the processing

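Of 265 alternative values, 251 stayed within set limits of the reported ones and 14 moved beyond them. Most of the 265 were counts of called members or median fold changes of members, which the rule kept small. The total of 251 therefore says little about how far the results hold. A change of direction was not scored. The limits were wide: a median fold change without sign counted as close if it shifted by less than 0.66. The reported medians were themselves only 0.21 to 0.29. A list with 72 shared genes counted as close, and one with 63 as moved. The list of 100 shared 76 to 99 genes with lists made without 1 library, the fewest without stage 39 replicate 4. It shared 56 with a pseudocount of 100, 61 with the median absolute deviation, 59 and 63 with letters A to J or K to R alone, and 72 to 100 under the other 10 settings. With no filter on low counts, edgeR called 2 members for stage 39 against 37/38, where 41 of all 16101 genes were called. It called 1 member for stage 41 against 39 (10 of 16101 genes) and 0 for stage 41 against 37/38 (8 of 16101). For any difference it called 2 members (68 of 16101 genes). All called members were TRINITY_DN28458_c0_g3 or TRINITY_DN28458_c0_g1, and the cause was not tested. Over all genes, in the order of the report, edgeR as reported called 0 of 1985 in each comparison. DESeq2 called 15 of 752, 0 of 1983, 2 of 1983 and 0 of 1983, and left 1231 genes without an adjusted p in the first. In edgeR with a filter of 5 CPM in 5 libraries the counts were 34, 4, 8 and 36 of 7649. In letters K to R alone they were 0, 0, 4 and 3 of 3140. Leaving out each library in turn, edgeR called 0 of all tested genes in every comparison, and so 0 members. Members chosen on TMM-scaled CPM held 20.9%, 15.8% and 19.1% of the counts at stages 37/38, 39 and 41, since the 2 genes with the highest CPM were not among them. Without those 2 genes in members and totals the shares were 25.2%, 21.1% and 25.2%. Of genes picked in A to J, 85 of 100 lay below the others' median in K to R under TMM and 68 when ranked by the variation beyond counting, against 77 as reported. With the replicate number as a block, edgeR called 0 members and 0 of 1985 genes in each comparison. Before adjustment 1, 0, 0 and 1 members lay below 0.05 in the order of the report, against 51, 30, 35 and 33 of 1985 genes. The labels state no pairing of same-numbered libraries. The deviations of same-numbered libraries of different stages correlated across genes at -0.151 to 0.0841 in 16 pairs. Pairs of different stages with different numbers had -0.171 to 0.280. Whether same-numbered libraries share a source was not tested. Depth and the spread between libraries together left fold changes of members with a median SE of 0.46 to 0.48 on the log2 scale.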
